A study of Homo sapiens with 9 samples.

Results

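The mitochondrial protein import machinery was followed here through 31 nuclear genes. They encode parts of the TOM, TIM, SAM and MIA machineries and of the import motor, and include TOMM34, a cytosolic co-chaperone. The genes were taken by their symbols, and all 31 were found among the 24542 rows of the count table and passed the filter on low counts that left 15558 rows. The libraries came from A2780, an established line of human ovarian carcinoma cells labelled as wild type. Cells had been kept for 96 h with Pt-ttpy at 5.5 µM, with cisplatin at 0.6 µM or with 0.5% DMSO, the solvent control, with 3 libraries per group that are named biological replicates in the labels. The labels place both drugs at their IC80, a dose that inhibits most of the cells, and do not say whether drug-treated cells also received DMSO. Cisplatin damages DNA by linking neighbouring bases. Pt-ttpy, another platinum complex, binds G-quadruplexes (folded structures of guanine-rich DNA) and disturbs mitochondria according to the title of the series. Whether these came from separate cultures is not said, so the p-values may measure technical spread only.

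Nearly all mitochondrial proteins are made in the cytosol and carried into the organelle after or during synthesis. They are recognised by receptors of the TOM complex on the outer membrane and pass through its TOMM40 channel. From there, proteins with a cleavable presequence go through the TIM23 translocase, pulled in by an ATP-driven motor, while metabolite carriers are escorted by small TIM chaperones to the TIM22 translocase. Barrel-shaped proteins of the outer membrane are inserted by the SAM complex, and small cysteine-rich proteins of the intermembrane space are trapped there by the MIA pathway, which gives them disulfide bonds.

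Library totals ranged from 31.3 to 40.8 M counts. Levels below are CPM, counts divided by the TMM-scaled library size, and fold changes are given as log2 of drug over DMSO or of Pt-ttpy over cisplatin. A gene was called changed at a Benjamini-Hochberg adjusted p under 0.05 in edgeR's quasi-likelihood F test over all 15558 genes. DMSO 2 and cisplatin 2 stood apart from the other 7 libraries: Spearman's rho between a gene's deviation and its transcript GC content, over 13383 genes, was 0.44 in cisplatin 2 and 0.54 in DMSO 2, against −0.36 to −0.18 in the other 7. Against DMSO, members whose call changed, or whose called value moved by more than 1.5 times, without both libraries are given with and without them below. Markers of ovarian carcinoma and epithelium were near absent, with summed levels of 0.741 to 1.3 CPM for Pt-ttpy, 1.63 to 3.72 for cisplatin and 0.175 to 0.744 for DMSO over 9 genes, and 2 of them, KRT8 and EPCAM, were called higher with cisplatin. PAX8, a gene of that list, was at 0 in all Pt-ttpy and DMSO libraries and at 0.0966, 0.284 and 0.296 CPM in cisplatin libraries 1 to 3. The 7 fibroblast markers, which include collagen and matrix genes, summed to 1690 to 1760 CPM with Pt-ttpy, 1610 to 1900 with cisplatin and 1020 to 1090 with DMSO, and 4 of the 7 were called higher with each drug. Endothelial markers reached at most 0.401 CPM and leukocyte markers 5.7 CPM in any library. The part of these markers in the results below was not tested.

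Length-corrected levels (TPM) showed how unequally the machinery was expressed. The receptor gene TOMM20 stood first in every group, with 614 TPM with Pt-ttpy (libraries from 579 to 641), 602 TPM with cisplatin (583 to 613) and 438 TPM with DMSO (333 to 507). In DMSO cells it was followed by TOMM5 with 316, TIMM17A with 310 and TOMM40 with 281 TPM. TIMM21 with 28.8 TPM and TIMM8A with 14.1 TPM (13.8 to 14.7) stood last. Along this order the ranges over the 3 DMSO libraries overlapped for 25 of 30 neighbouring pairs, so most single steps in the order were within the spread.

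After 96 h with Pt-ttpy, 9 of the 31 genes fell, 1 rose and 21 did not pass the test. Those that fell were the receptor TOMM22, the channel TOMM40 and its small subunit TOMM5, the chaperones TIMM10 and TIMM13, the translocase subunits TIMM22, TIMM23 and TIMM50, and the motor anchor TIMM44, with log2 changes between −0.65 and −0.41. TOMM20 was the gene that rose. Of all 15558 genes tested, 6.45% were called lower and 5.59% higher, so the lower share of the members, 29%, lay above the background; among the 9993 genes with a mean of at least 10 CPM, the range in which the members lie, 9.59% were called lower and 5.35% higher. The median log2 change of the members was −0.30 and 26 of 31 values were below 0, against a median of 0.03 over all genes and −0.05 over those of at least 10 CPM. The Pt-ttpy and DMSO libraries did not overlap, with Pt-ttpy lower, for 18 members (background 20.6%, or 28.5% at 10 CPM or more), and with Pt-ttpy higher for TOMM20 (background 20.3% and 18.2%). In bulk RNA, fewer cells of a type and less RNA per cell cannot be told apart.

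Other than for TOMM22, the Pt-ttpy calls were lost without any 1 Pt-ttpy library. Without Pt-ttpy 1, Pt-ttpy 2 or Pt-ttpy 3, only the fall of TOMM22 was still called in each case (highest adjusted p 0.0426), while the other 9 called members had adjusted p-values between 0.062 and 0.144 with log2 changes between −0.69 and −0.37 for those that fell and between 0.41 and 0.44 for TOMM20. The same fits called 199 higher and 68 lower, 143 and 42, and 212 and 87 of all genes, against 870 and 1004 with all 9 libraries. Upper-quartile scaling gave 1050 higher and 666 lower genes. Without DMSO 2 and cisplatin 2, a fit chosen with earlier results of these data known, 2 members were called higher and 14 lower, with a median of −0.20, while 2469 and 2720 of 15646 genes were called.

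After cisplatin, 11 of the 31 genes fell, 1 rose and 19 did not pass the test. The calls with cisplatin were TOMM20, higher, and TOMM22, TOMM40, TOMM5, TOMM6, TIMM10, TIMM13, TIMM22, TIMM23, TIMM50, TIMM44 and CHCHD4, lower. With TOMM6 and PAM16 joined with overlapping genes, as described below for TOMM6, 10 members were called lower and TOMM6 was not among them. Of all genes tested 9.78% were called lower and 10.7% higher, and of those with at least 10 CPM 14.4% and 8.76%, against 35.5% of the members lower. The median log2 change of the members was −0.31, with 27 of 31 values below 0, and over all genes it was 0.01 (−0.09 at 10 CPM or more). The cisplatin and DMSO libraries did not overlap, with cisplatin lower, for 16 members (background 19.4%, or 27% at 10 CPM or more), and with cisplatin higher for TOMM20 (background 18.6% and 13.5%). The 2 comparisons with DMSO share the DMSO libraries, so their values are set side by side and not counted as separate evidence.

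With 1 library left out at a time, TOMM22, TOMM40, TOMM5, TIMM10, TIMM22, TIMM23 and TIMM44 were still called lower with cisplatin in 9 of 9 fits (highest adjusted p 0.049). The counts of called members ranged from 7, without Pt-ttpy 3 (1338 higher and 1040 lower of all genes), to 12, without DMSO 2 (1701 and 1399). Over all genes cisplatin gave 1669 higher and 1521 lower, and with upper-quartile scaling 1940 and 913. A fit to the 6 cisplatin and DMSO libraries alone called 6 members, all lower, and 918 higher and 395 lower genes in all. With the replicate number as a block, which treats libraries of the same number as pairs, the same 6 libraries gave 1 member higher and 9 lower. Over all genes that fit gave 1760 higher and 1335 lower. TOMM20, TIMM10 and TIMM23 were then called (adjusted p = 0.0324, 0.0322 and 0.0253). A correction for GC content, chosen after seeing the data, gave 2 members higher and 15 lower with cisplatin, among 2534 higher and 2369 lower of 13383 genes.

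**Figure D1:**
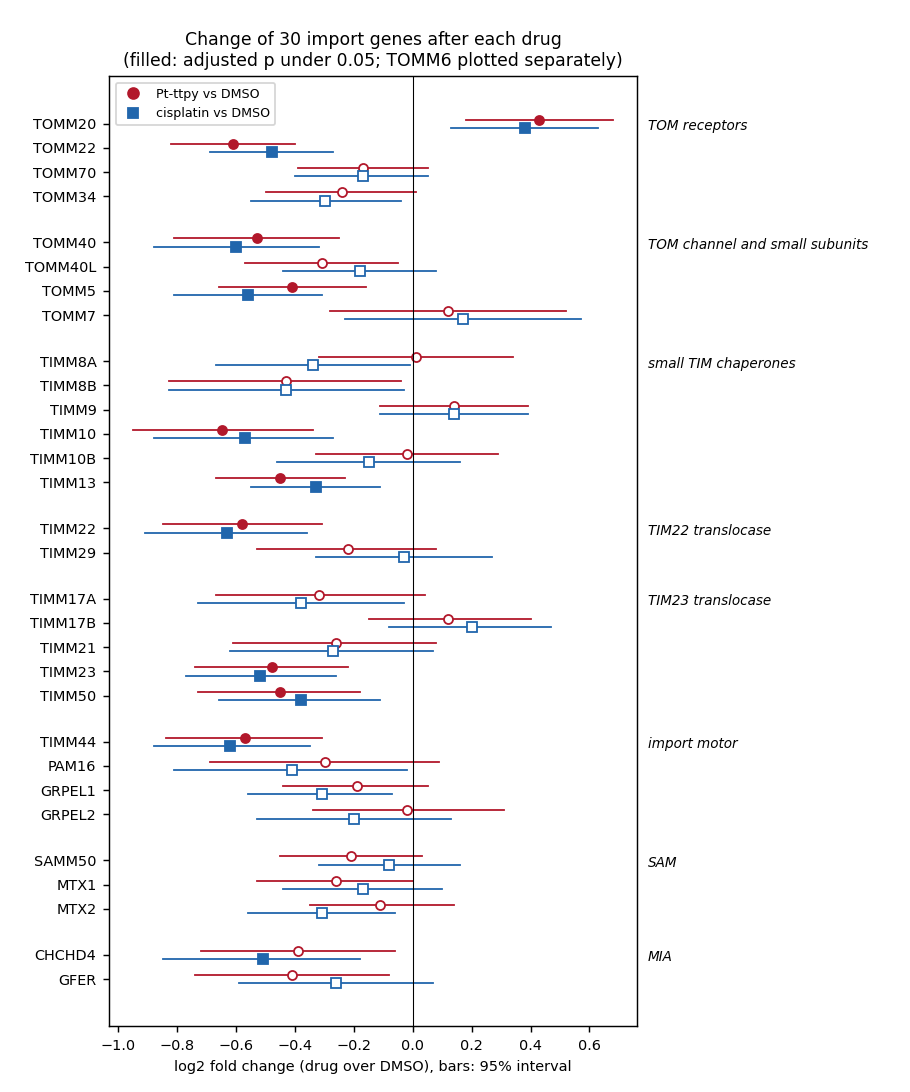
Log2 fold change (x axis) of 30 import genes (y axis, grouped by role) with Pt-ttpy (circles) and cisplatin (squares) relative to DMSO, with 95% intervals from the edgeR fit; filled symbols have an adjusted p under 0.05 and TOMM6 is left to its own plot. TOMM20 is the only filled symbol to the right of 0 for either drug, and the filled symbols to the left lie between −0.65 and −0.33.

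**Figure D2:**
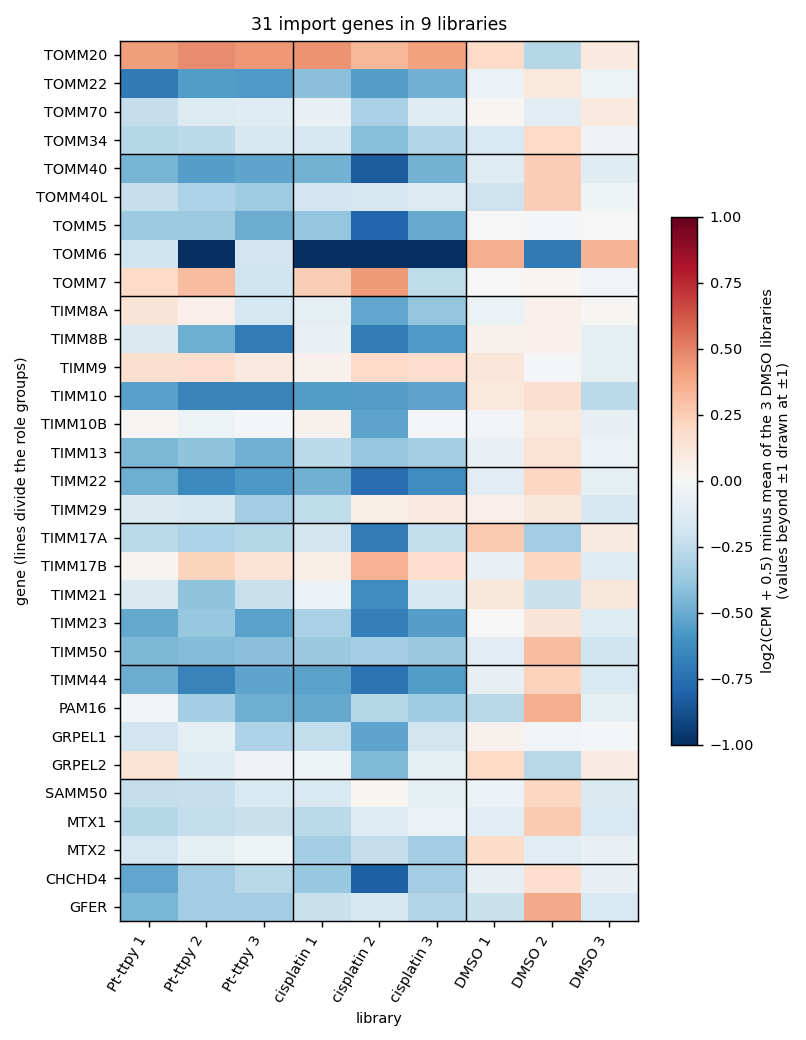
Level of each of the 31 genes (rows, grouped by role) in each of the 9 libraries (columns), as log2(CPM + 0.5) minus the mean of the 3 DMSO libraries, with red higher and blue lower and values beyond ±1 drawn at ±1. Blue prevails in the 6 drug columns, TOMM20 is red in all 6, and DMSO 2 and cisplatin 2 differ visibly from the other columns of their groups in genes such as TIMM17A.

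Among the receptors of the TOM complex, TOMM20 and TOMM22 moved in opposite directions and TOMM70 did not pass the test. Nor did TOMM34, which is not a receptor but was grouped with them here. TOMM20 (ENSG00000173726, chromosome 1, 235109336 to 235128936, GRCh38, GENCODE 29) encodes the receptor that binds presequences. Its level was 670, 698 and 677 CPM in Pt-ttpy libraries 1 to 3, 684, 631 and 663 CPM in cisplatin libraries, and 573, 412 and 536 CPM in DMSO libraries. All 6 drug libraries lay above all 3 DMSO libraries, and DMSO 2 was the lowest of the 9. The means were 682 ± 14.7 CPM with Pt-ttpy, 660 ± 26.5 with cisplatin and 507 ± 84.2 with DMSO (SD, n = 3 each). TOMM20 rose by log2 0.43 with Pt-ttpy (SE 0.12, adjusted p = 0.034), a fold of 1.35, and by 0.38 with cisplatin (SE 0.12, adjusted p = 0.0374). The Pt-ttpy call was lost without DMSO 3 (adjusted p = 0.0599) and without any 1 Pt-ttpy library (at most 0.125). The cisplatin call was lost without cisplatin 1 (0.0962), cisplatin 3 (0.0795), DMSO 3 (0.0636), or any 1 Pt-ttpy library (at most 0.0637), and in the 6 cisplatin and DMSO libraries alone (0.0958; 0.0324 with the replicate block). Without DMSO 2 the cisplatin change was 0.25 (0.0356).

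A motif match in the TOMM20 promoter is shown here, since NRF1 is tied to mitochondrial genes. The motif is also in the TOMM40 stretch printed below, and TOMM40 fell. Its part in either change was not tested. The 120 bases shown for TOMM20 end with a match to the NRF1 motif, the site of nuclear respiratory factor 1, which activates many genes for mitochondrial proteins. The sequence is from RefSeq (GRCh38.p14) and is written 5′ to 3′ on the gene's strand, with the NRF1 match, bases 101 to 92 before the RefSeq start, in capitals.
TOMM20 promoter, chr1:235128929-235129048, minus strand: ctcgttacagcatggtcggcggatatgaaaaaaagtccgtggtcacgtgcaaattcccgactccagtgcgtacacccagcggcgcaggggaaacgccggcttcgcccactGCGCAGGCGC

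TOMM22 (ENSG00000100216, chromosome 22, 38681948 to 38685421) encodes the central receptor that also holds the TOM complex together. It had 85.4, 94.6 and 93.9 CPM with Pt-ttpy, 104, 95 and 100 CPM with cisplatin, and 134, 150 and 135 CPM with DMSO. Every drug library lay below every DMSO library, and the spread within each group was small. TOMM22 fell by log2 0.61 with Pt-ttpy (SE 0.10, adjusted p = 0.00631, fold 0.655) and by 0.48 with cisplatin (SE 0.10, adjusted p = 0.00725, fold 0.716). It is the member whose call was kept in all 9 fits without 1 library, for both drugs. TOMM70, the receptor for carrier proteins brought by chaperones, averaged 112 ± 5.05 CPM with Pt-ttpy, 112 ± 9.94 with cisplatin and 127 ± 8.9 with DMSO (log2 −0.17 for each drug, adjusted p = 0.296 and 0.257). Its Pt-ttpy change was called without DMSO 2 and cisplatin 2 (log2 −0.22, adjusted p = 0.00496) and with GC correction (−0.31, adjusted p = 0.0204). TOMM34, a cytosolic co-chaperone of import, had log2 changes of −0.24 with Pt-ttpy and −0.30 with cisplatin (adjusted p = 0.189 and 0.0905), and −0.14 and −0.12 without DMSO 2 and cisplatin 2.

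**Figure D3:**
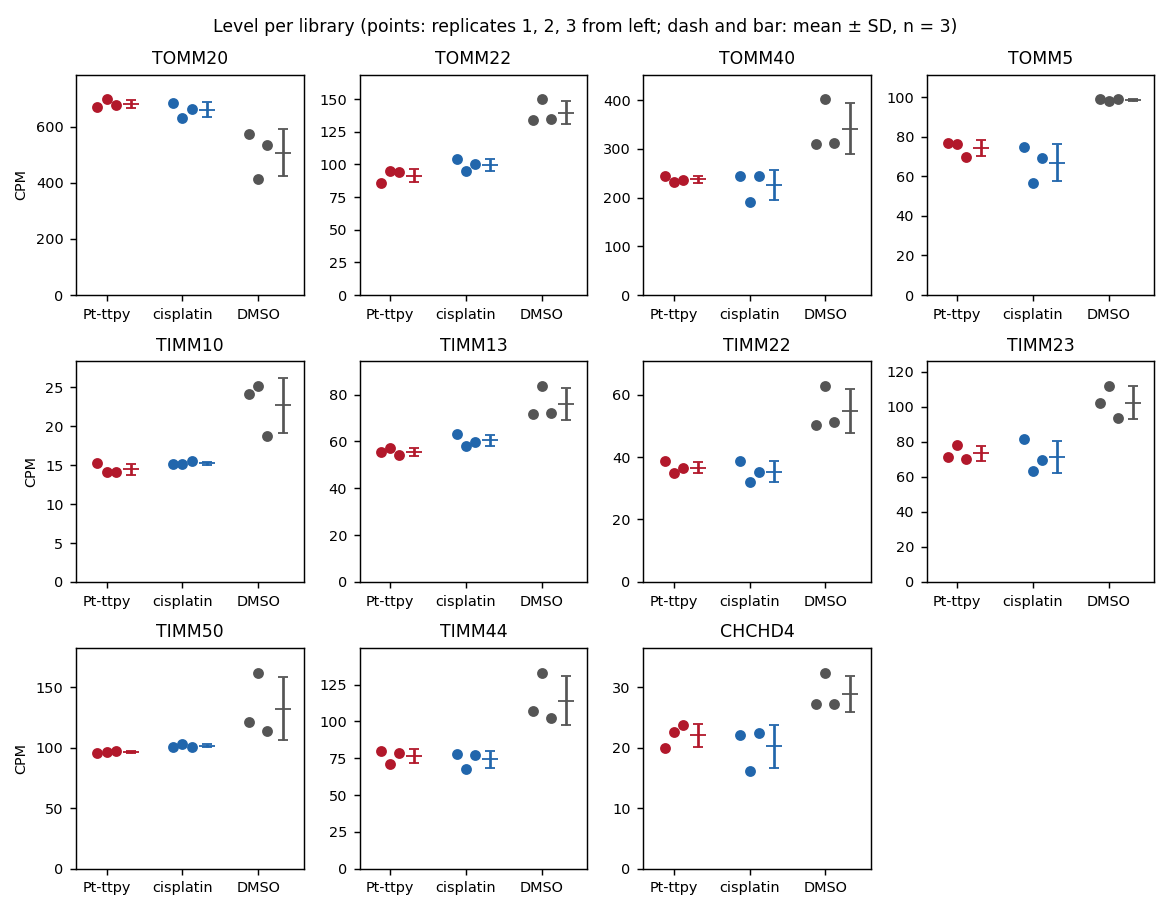
CPM (y axes, from 0) of 11 import genes called in at least 1 comparison with DMSO, 1 panel each, in the 3 libraries of Pt-ttpy, cisplatin and DMSO (points), with the mean and SD beside them. In TOMM20 the drug points lie above the DMSO points, and in the other 10 panels they lie below them.

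Genes for the TOM pore and a small subunit fell with both drugs. TOMM40 (ENSG00000130204, chromosome 19, 44890569 to 44903689), the channel protein, had 245, 231 and 235 CPM with Pt-ttpy, 244, 190 and 244 CPM with cisplatin, and 310, 402 and 312 CPM with DMSO. The lowest value came from cisplatin 2 and the highest from DMSO 2, and no drug library reached a DMSO library. TOMM40 fell by log2 0.53 with Pt-ttpy (SE 0.13, adjusted p = 0.0239) and by 0.60 with cisplatin (SE 0.13, adjusted p = 0.00954). Without DMSO 2 the Pt-ttpy change was −0.39 and no longer called (adjusted p = 0.052), and without any 1 Pt-ttpy library the adjusted p was at most 0.105. Without DMSO 2 and cisplatin 2 both falls were called, at −0.39 with Pt-ttpy (adjusted p = 4.75e-06) and −0.35 with cisplatin (4.99e-05). The promoter of TOMM40 holds a G-quadruplex pattern, the letter pattern of the structure that Pt-ttpy is described to bind: 4 runs of at least 3 G with 1 to 7 bases between them, on either strand. It is printed as 120 bases of RefSeq (GRCh38.p14), 5′ to 3′, with the pattern, bases 201 to 186 before the RefSeq start, in capitals.
TOMM40 promoter, chr19:44891004-44891123, plus strand: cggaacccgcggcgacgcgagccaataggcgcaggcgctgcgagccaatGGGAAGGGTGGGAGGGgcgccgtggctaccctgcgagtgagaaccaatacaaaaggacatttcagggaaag

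TOMM5 (ENSG00000175768, chromosome 9, 37582646 to 37592642), a small subunit of the TOM core, had 76.6, 76.5 and 69.7 CPM with Pt-ttpy, 74.9, 56.7 and 69.2 CPM with cisplatin, and 98.8, 98 and 99 CPM with DMSO. The DMSO values were nearly equal and all drug values lay below them. TOMM5 fell by log2 0.41 with Pt-ttpy (SE 0.11, adjusted p = 0.0384) and by 0.56 with cisplatin (SE 0.11, adjusted p = 0.00762). The Pt-ttpy call was lost with upper-quartile factors (0.0583), library totals (0.05), without cisplatin 3 (0.0574), without DMSO 1, 2 or 3 (0.0699, 0.0551 and 0.0875) and without any 1 Pt-ttpy library (at most 0.144). TOMM5 shares 14.3% and 9.3% of its exon bases with 2 genes on its own strand, which had at most 21 counts in any library. TOMM7, another small subunit, averaged 21.6 ± 3.89 CPM with Pt-ttpy, 22.4 ± 5.3 with cisplatin and 19.9 ± 0.275 with DMSO, and its changes of 0.12 and 0.17 were not called (adjusted p = 0.707 and 0.547). TOMM40L, a close relative of TOMM40, had log2 changes of −0.31 with Pt-ttpy and −0.18 with cisplatin (adjusted p = 0.102 and 0.304), and −0.18 and −0.04 without DMSO 2 and cisplatin 2. Without DMSO 1 its Pt-ttpy change was called (−0.41, adjusted p = 0.0486).

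TOMM6 (ENSG00000214736, chromosome 6, 41787662 to 41789898), the third small subunit of the TOM core, had the widest spread of the members. It had 43.2, 4.17 and 43.3 CPM with Pt-ttpy, 4.44, 4.33 and 7.56 CPM with cisplatin, and 64.1, 30.2 and 62.9 CPM with DMSO. Pt-ttpy 2 sat with the cisplatin libraries and DMSO 2 below the other DMSO libraries. The fitted changes were log2 −0.80 with Pt-ttpy (SE 0.77, adjusted p = 0.544) and −3.27 with cisplatin (SE 0.86, adjusted p = 0.0397). The cisplatin call was lost in 7 of 9 fits without 1 library, among them those without cisplatin 1, 2 or 3 (0.11, 0.129 and 0.0838), DMSO 1 or 3 (0.0804 and 0.0878) and Pt-ttpy 1 or 3 (0.052 and 0.0557), and without DMSO 2 and cisplatin 2 (0.122). It was also lost with limma-voom (0.085) and with no filter (0.0619).

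All 637 exon bases of TOMM6 lie within the exons of a second gene on the same strand, ENSG00000124593, which is counted as a row of its own. That row had 35.3, 85.9 and 34.5 CPM with Pt-ttpy, 90.5, 74.4 and 77.7 CPM with cisplatin, and 33.5, 79.6 and 38.3 CPM with DMSO, so it was high in the libraries in which TOMM6 was low. TOMM6 held 55.1%, 4.63% and 55.6% of the joined counts with Pt-ttpy, 4.68%, 5.51% and 8.86% with cisplatin, and 65.7%, 27.5% and 62.1% with DMSO. Joined, the rows averaged 82.1 ± 6.85 CPM with Pt-ttpy, 86.3 ± 8.2 with cisplatin and 103 ± 6.41 with DMSO (SD, n = 3 each). The joined change was log2 −0.33 with Pt-ttpy (SE 0.11, adjusted p = 0.0722) and −0.25 with cisplatin (SE 0.11, adjusted p = 0.121), so the cisplatin call of TOMM6 did not hold for the joined locus. How the authors' counting shared reads between the 2 genes is not given in the sources used here.

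**Figure D4:**
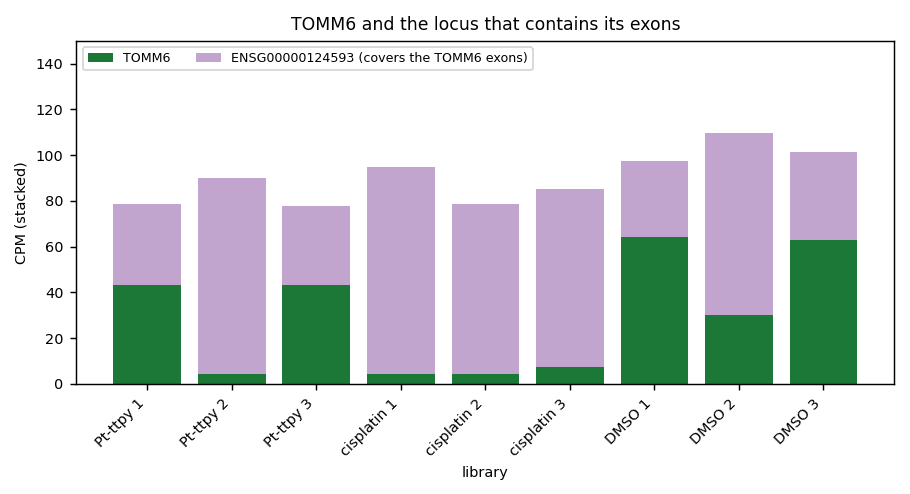
CPM (y axis, stacked bars from 0) of TOMM6 (green, lower) and of ENSG00000124593, the gene whose exons contain those of TOMM6 (violet, upper), in the 9 libraries (x axis). The green part changes between 4.17 and 64.1 CPM while the full bars stay between 77.8 and 110 CPM.

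Of the 6 small TIM chaperones, which carry hydrophobic proteins across the intermembrane space, TIMM10 and TIMM13 fell with both drugs and the other 4 did not pass the test with either. TIMM10 (ENSG00000134809, chromosome 11, 57528463 to 57530803) works in a ring with TIMM9. It had 15.3, 14.1 and 14.1 CPM with Pt-ttpy, 15.1, 15.2 and 15.5 CPM with cisplatin, and 24.2, 25.2 and 18.7 CPM with DMSO. The 6 drug libraries were close to each other and all lay below the lowest DMSO library. TIMM10 fell by log2 0.65 with Pt-ttpy (SE 0.14, adjusted p = 0.0172) and by 0.57 with cisplatin (SE 0.14, adjusted p = 0.0161). Without any 1 Pt-ttpy library the Pt-ttpy adjusted p was at most 0.0851, and in the 6 cisplatin and DMSO libraries alone the cisplatin adjusted p was 0.0637 (0.0322 with the replicate block). Its partner TIMM9 averaged 26 ± 0.7 CPM with Pt-ttpy, 25.9 ± 1.42 with cisplatin and 23.6 ± 1.86 with DMSO, with a log2 change of 0.14 for each drug (adjusted p = 0.435 and 0.416).

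TIMM13 (ENSG00000099800, chromosome 19, 2425624 to 2427894) forms a second ring with TIMM8 proteins. It had 55.4, 57.2 and 54 CPM with Pt-ttpy, 63.1, 58.2 and 59.9 CPM with cisplatin, and 71.7, 83.7 and 72.2 CPM with DMSO. The drug libraries lay below the DMSO libraries without overlap, Pt-ttpy lowest. TIMM13 fell by log2 0.45 with Pt-ttpy (SE 0.10, adjusted p = 0.0194) and by 0.33 with cisplatin (SE 0.10, adjusted p = 0.0399). Without any 1 Pt-ttpy library the Pt-ttpy adjusted p was at most 0.0828. The cisplatin call was lost with upper-quartile factors (0.1), library totals (0.0884) and no filter (0.0569), in the 6 libraries of the contrast (0.135; 0.0644 with a replicate block), without DMSO 3 (0.0661), and without any 1 Pt-ttpy or cisplatin library (0.0639 to 0.0939). TIMM13 shares 13.0% of its exon bases with LMNB2, a lamin gene on the same strand with 17499 to 29419 counts per library, which fell too (log2 −0.37 with Pt-ttpy and −0.33 with cisplatin, adjusted p = 0.0409 and 0.0474). Their shared counts cannot be told apart here.

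TIMM8B averaged 25.5 ± 5.08 CPM with Pt-ttpy, 25.5 ± 6.2 with cisplatin and 34.4 ± 1.9 with DMSO, and its change of log2 −0.43 with each drug was not called (adjusted p = 0.135 and 0.112). With the replicate number as a block, the cisplatin change was called (log2 −0.46, adjusted p = 0.0314). It shares 30.1% of its exon bases with NKAPD1 on the opposite strand, and the strandedness of the counting is not given in the sources used here. TIMM8A, the gene mutated in deafness-dystonia syndrome, averaged 16.7 ± 1.87 CPM with Pt-ttpy, 13.1 ± 2.09 with cisplatin and 16.6 ± 0.739 with DMSO (log2 0.01 and −0.34, adjusted p = 0.973 and 0.134). TIMM10B, a member of the TIM22 complex, had log2 changes of −0.02 with Pt-ttpy and −0.15 with cisplatin (adjusted p = 0.946 and 0.492).

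TIMM22 (ENSG00000177370, chromosome 17, 997117 to 1003671), the channel that inserts carriers into the inner membrane, was among the members with the largest falls. It had 38.6, 34.9 and 36.4 CPM with Pt-ttpy, 38.8, 31.9 and 35.2 CPM with cisplatin, and 50.2, 62.8 and 51.2 CPM with DMSO. All 6 drug libraries lay below the 3 DMSO libraries. TIMM22 fell by log2 0.58 with Pt-ttpy (SE 0.12, adjusted p = 0.0168) and by 0.63 with cisplatin (SE 0.12, adjusted p = 0.00663). Without any 1 Pt-ttpy library the Pt-ttpy adjusted p was at most 0.0866. TIMM29, its accessory subunit, averaged 20.7 ± 1.57 CPM with Pt-ttpy, 23.7 ± 3.12 with cisplatin and 24.2 ± 2.41 with DMSO, and was not called (log2 −0.22 and −0.03, adjusted p = 0.308 and 0.899).

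In the TIM23 translocase, the channel TIMM23 and the receptor TIMM50 fell with both drugs, while TIMM17A, TIMM17B and TIMM21 did not pass the test. TIMM23 (ENSG00000265354, chromosome 10, 45972449 to 46003734) had 71.6, 78.4 and 70.4 CPM with Pt-ttpy, 81.5, 63.5 and 69.7 CPM with cisplatin, and 102, 112 and 93.5 CPM with DMSO. No drug library reached the lowest DMSO library. TIMM23 fell by log2 0.48 with Pt-ttpy (SE 0.12, adjusted p = 0.0253) and by 0.52 with cisplatin (SE 0.12, adjusted p = 0.0122). The Pt-ttpy call was lost without DMSO 2 (0.0519) and without any 1 Pt-ttpy library (at most 0.103), and the cisplatin call in the 6 libraries of that contrast (0.0537; 0.0253 with the replicate block). TIMM23B, a near copy of TIMM23, had 14.2 ± 1.49 CPM with Pt-ttpy, 12.5 ± 3.52 with cisplatin and 13.7 ± 1.34 with DMSO and was not called (adjusted p = 0.873 and 0.666); how reads were divided between the copies is uncertain.

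TIMM50 (ENSG00000105197, chromosome 19, 39480412 to 39493785), which receives presequences in the intermembrane space, had 95.8, 96.7 and 97.7 CPM with Pt-ttpy, 101, 103 and 101 CPM with cisplatin, and 121, 162 and 114 CPM with DMSO. The drug libraries were nearly level and lay below DMSO, where DMSO 2 was well above the other libraries. TIMM50 fell by log2 0.45 with Pt-ttpy (SE 0.12, adjusted p = 0.0365) and by 0.38 with cisplatin (SE 0.12, adjusted p = 0.0476). The cisplatin call was lost in 8 of 15 other settings (adjusted p 0.0521 to 0.141), without any 1 Pt-ttpy or cisplatin library (0.0754 to 0.101), and without DMSO 2, where its change was −0.21 (0.0594). The Pt-ttpy call was lost without cisplatin 1 or 3 (0.0526 and 0.054) or any 1 Pt-ttpy library (at most 0.129), with upper-quartile factors (0.0652) and library totals (0.052), and in the 6 libraries of the contrast (0.0501). Without DMSO 2 the Pt-ttpy change was −0.28 (0.0401). Without DMSO 2 and cisplatin 2 TIMM50 was called for both drugs with smaller changes, −0.28 with Pt-ttpy (0.000624) and −0.22 with cisplatin (0.0102). The G-quadruplex pattern of its promoter, 35 to 10 bases before the start, is printed in capitals (RefSeq, GRCh38.p14, 5′ to 3′).
TIMM50 promoter, chr19:39480803-39480828, plus strand: GGGCGGGCGAAGAGGGAGCGAGTGGG

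TIMM17A and TIMM17B are alternative subunits that shape the TIM23 channel. TIMM17A had 143, 139 and 141 CPM with Pt-ttpy, 152, 106 and 145 CPM with cisplatin, and 207, 135 and 183 CPM with DMSO. DMSO 2 lay below all 3 Pt-ttpy libraries and cisplatin 2 was the lowest of the 9, so the groups overlapped. The changes of log2 −0.32 with Pt-ttpy and −0.38 with cisplatin were not called (adjusted p = 0.215 and 0.116). Without DMSO 2 and cisplatin 2, TIMM17A was called lower with Pt-ttpy (log2 −0.47, adjusted p = 5.89e-06) and with cisplatin (−0.38, adjusted p = 0.000141), as it was with a correction for GC content (−0.39 and −0.35, adjusted p = 0.00466 and 0.00566). With the replicate number as a block the cisplatin change was called (log2 −0.38, adjusted p = 0.0361).

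TIMM17B had 40.5, 46.4 and 43.8 CPM with Pt-ttpy, 41.6, 50.8 and 45 CPM with cisplatin, and 37.7, 46 and 36.3 CPM with DMSO. The libraries of replicate 2 were the highest of each group, and the groups overlapped through DMSO 2. Its changes of log2 0.12 with Pt-ttpy and 0.20 with cisplatin were not called (adjusted p = 0.559 and 0.297). Without DMSO 2 and cisplatin 2 TIMM17B was called higher with Pt-ttpy (log2 0.24, adjusted p = 0.0272) and not with cisplatin (0.23, adjusted p = 0.0517). With GC correction it was called higher with both drugs (0.26 each, adjusted p = 0.0298 and 0.0252). TIMM21, known to link the TIM23 translocase to the respiratory chain, had log2 changes of −0.26 and −0.27 (adjusted p = 0.293 and 0.241), and without those libraries −0.36 with Pt-ttpy (adjusted p = 0.00194) and −0.21 with cisplatin (adjusted p = 0.0787). With GC correction TIMM21 was called lower with both (−0.37 and −0.26, adjusted p = 0.0144 and 0.0476).

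In the import motor, TIMM44 fell with both drugs and PAM16, GRPEL1 and GRPEL2 did not pass the test. TIMM44 (ENSG00000104980, chromosome 19, 7926718 to 7943920), which anchors the mitochondrial HSP70 to the translocase, had 80, 71.2 and 78.5 CPM with Pt-ttpy, 78, 67.8 and 76.9 CPM with cisplatin, and 107, 133 and 102 CPM with DMSO. The highest drug library was below the lowest DMSO library. TIMM44 fell by log2 0.57 with Pt-ttpy (SE 0.12, adjusted p = 0.0158, fold 0.672) and by 0.62 with cisplatin (SE 0.12, adjusted p = 0.00645, fold 0.652). Without any 1 Pt-ttpy library the Pt-ttpy adjusted p was at most 0.0862. Its promoter holds the G-quadruplex pattern 244 to 224 bases before the start, with the runs of G on the opposite strand, so that the printed strand shows runs of C (capitals; RefSeq, GRCh38.p14, 5′ to 3′).
TIMM44 promoter, chr19:7943890-7943910, minus strand: CCCTCCCAGGAGTGCCCTCCC

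PAM16, which restrains the J-domain partner of the motor, averaged 21.2 ± 3.59 CPM with Pt-ttpy, 19.6 ± 1.59 with cisplatin and 26.2 ± 6.28 with DMSO (log2 −0.30 and −0.41, adjusted p = 0.284 and 0.122), and had −0.09 and −0.25 without DMSO 2 and cisplatin 2. It shares 21.9% of its exon bases with the readthrough gene CORO7-PAM16, and joined with it the changes were −0.23 and −0.45 (adjusted p = 0.343 and 0.0595). GRPEL1, the main nucleotide exchange factor of mitochondrial HSP70, averaged 73.3 ± 5.55 CPM with Pt-ttpy, 67.4 ± 8.33 with cisplatin and 83.8 ± 2.06 with DMSO (log2 −0.19 and −0.31, adjusted p = 0.28 and 0.0683). In the 7 libraries without DMSO 2 and cisplatin 2, GRPEL1 was called lower with both drugs (−0.20 and −0.22, adjusted p = 0.0275 and 0.0291). Its paralog GRPEL2 had changes of −0.02 and −0.20 (adjusted p = 0.954 and 0.367).

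None of the 3 SAM genes was called with either drug by edgeR, DESeq2 or limma-voom, and 1 with cisplatin and 0 with Pt-ttpy had an unadjusted p under 0.05. MTX2, a metaxin on the cytosolic face of the complex, had 39.8, 41.9 and 43.3 CPM with Pt-ttpy, 35.3, 37.9 and 35.1 CPM with cisplatin, and 50.9, 41.3 and 42.5 CPM with DMSO. Cisplatin libraries lay below all DMSO libraries and Pt-ttpy libraries overlapped them. The changes were log2 −0.11 with Pt-ttpy and −0.31 with cisplatin (adjusted p = 0.576 and 0.0705), and the cisplatin change was called without DMSO 2 and cisplatin 2 (−0.40, adjusted p = 0.00298), without DMSO 2 alone (−0.37, adjusted p = 0.0349) and with GC correction (−0.25, adjusted p = 0.0486). SAMM50, the barrel that inserts other barrels, had log2 changes of −0.21 and −0.08 (adjusted p = 0.226 and 0.658), and MTX1 of −0.26 and −0.17 (adjusted p = 0.174 and 0.363; −0.12 and −0.03 without DMSO 2 and cisplatin 2).

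Of the MIA pair, CHCHD4 (ENSG00000163528, chromosome 3, 14112077 to 14124870), the oxidoreductase that folds incoming proteins, fell with cisplatin. It had 20, 22.6 and 23.7 CPM with Pt-ttpy, 22.1, 16.2 and 22.5 CPM with cisplatin, and 27.2, 32.4 and 27.2 CPM with DMSO. All drug libraries were below all DMSO libraries, with cisplatin 2 lowest. CHCHD4 fell by log2 0.51 with cisplatin (SE 0.15, adjusted p = 0.0336), and its change with Pt-ttpy was −0.39 (SE 0.15, adjusted p = 0.111); the difference between the drugs was itself not called. Without DMSO 2 and cisplatin 2 the order of the calls turned round, with −0.29 for Pt-ttpy (adjusted p = 0.0256) and −0.28 for cisplatin (adjusted p = 0.0564). The cisplatin call was also lost with upper-quartile factors (0.0533) and library totals (0.0537), in the 6 libraries of the contrast (0.0946; 0.0609 with a replicate block), and without cisplatin 2 (0.0837), DMSO 1, 2 or 3 (0.0513, 0.0765 and 0.0605) or Pt-ttpy 2 or 3 (0.0593 and 0.0543). GFER, the sulfhydryl oxidase that recharges CHCHD4, averaged 35.5 ± 1.58 CPM with Pt-ttpy, 39.5 ± 1.59 with cisplatin and 47.3 ± 11.5 with DMSO (log2 −0.41 and −0.26, adjusted p = 0.0916 and 0.246). GFER was called lower with both drugs with GC correction (−0.29 and −0.25, adjusted p = 0.0296 and 0.0439), and had −0.19 and −0.06 without DMSO 2 and cisplatin 2 (adjusted p = 0.0655 and 0.618).

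The directions of partner genes can be read within a library as a ratio, which does not depend on the scaling of library sizes. The log2 ratio of TOMM20 to TOMM22 (in TPM) was 2.24, 2.15 and 2.12 with Pt-ttpy, 1.98, 2 and 1.99 with cisplatin, and 1.37, 0.73 and 1.26 with DMSO. Every drug library lay above every DMSO library. This pair was chosen after its values were seen, and no test is given for the ratios, because an exact permutation test of 3 against 3 libraries cannot go below p = 0.1. The ratio of TOMM40 to TOMM40L averaged 1.67 ± 0.04 with Pt-ttpy, 1.46 ± 0.20 with cisplatin and 1.89 ± 0.08 with DMSO (SD, n = 3 each). For TIMM17A to TIMM17B it was 1.10 ± 0.12 with Pt-ttpy, 0.95 ± 0.43 with cisplatin and 1.52 ± 0.49 with DMSO, and DMSO 2, at 0.96, overlapped with the drugs. For TIMM8A to TIMM8B it was −2.65 ± 0.14 with Pt-ttpy, −3.00 ± 0.11 with cisplatin and −3.10 ± 0.11 with DMSO, so TIMM8A was the lower of the pair per length in all groups.

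**Figure D5:**
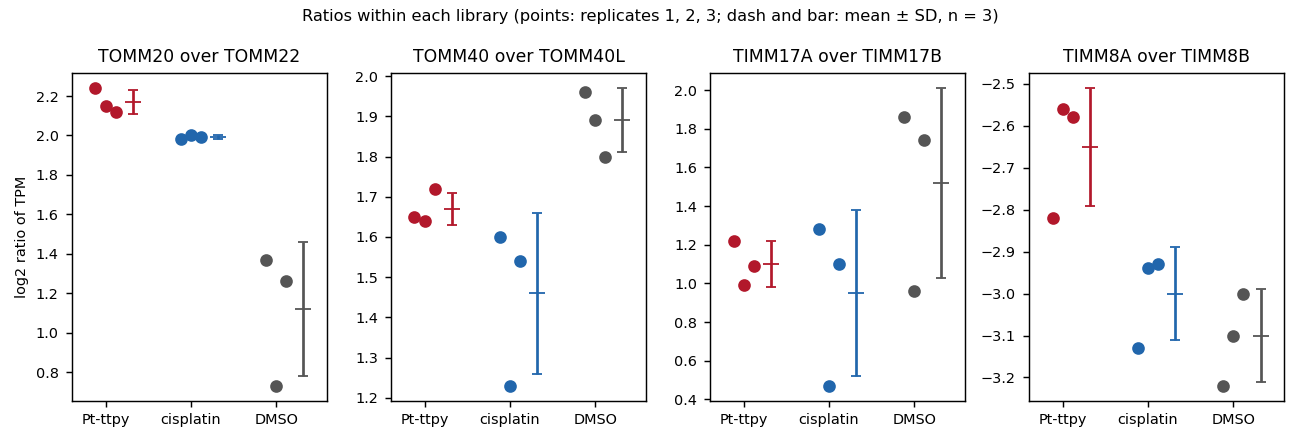
Log2 ratio of the TPM values of 4 gene pairs (y axes, each with its own range that does not start at 0) within each library of Pt-ttpy, cisplatin and DMSO (points), with mean and SD beside them. The TOMM20 to TOMM22 ratio is between 1.98 and 2.24 in all drug libraries and between 0.73 and 1.37 in DMSO libraries.

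None of the 31 members was called by edgeR between Pt-ttpy and cisplatin, a comparison in which 0.514% of all genes were called, 9 higher and 71 lower. The unadjusted p was under 0.05 for 2 members, TOMM6 and TIMM8A, and DESeq2 and limma-voom also called none. The doses differed in molarity and are both labelled as the IC80. Leaving out TOMM6, the 30 log2 differences lay between −0.19 and 0.35, the lowest adjusted p was 0.585, and the 95% intervals reached from −0.50 to 0.68 and lay within ±0.5 for 26 of 30. TIMM8A stood at 18.2, 17.2 and 14.6 CPM with Pt-ttpy and 15.4, 11.4 and 12.5 CPM with cisplatin, a log2 difference of 0.35 (95% interval 0.02 to 0.68, edgeR adjusted p = 0.585). Pt-ttpy and cisplatin libraries did not overlap for 5 of the 31 members lower with Pt-ttpy (background 10.1% of all genes) and for 1 of the 31 higher, MTX2 (background 10.5%). The background at 10 CPM or more, where the members lie, is not given for this comparison. TOMM6 differed by log2 2.47 (adjusted p = 0.492), and by −0.07 when joined with the gene that contains it (adjusted p = 0.896). Without Pt-ttpy 2, TOMM6 alone was called, at 2.99 (adjusted p = 0.00422).

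The promoter windows of the members, 250 bases before to 50 after the start in RefSeq (GRCh38.p14), were searched on both strands, and 28 of 31 members had a window. TOMM5, TIMM8B and GRPEL1 had no entry. The 27305 windows used for comparison are the first window of each gene in RefSeq and were not limited to genes expressed here. The matches printed above lie inside the GENCODE 29 spans of their genes or across the start of the gene there. The NRF1 motif (GCGCA, any base, GCGC) was found in 8 of 28 windows (28.6%), against 6.28% of all 27305 windows, and in TOMM20, TOMM40, TOMM7, TOMM34, CHCHD4, PAM16, GRPEL2 and TIMM29. Of these 8, TOMM40 was called lower with both drugs and TOMM20 higher with both. Of the 20 members whose window lacks the motif, 7 were called lower with both and 0 higher. The motif CCGGAAG of ETS factors was in 12 windows (42.9%, against 10.7% of all), those of TOMM20, TOMM22, TOMM34, TOMM6, TOMM70, TIMM10, TIMM10B, TIMM13, TIMM23, TIMM29, GRPEL2 and MTX2. Called lower with both drugs were 4 of these 12 and 4 of the 16 members whose window lacks it. The GC box GGGCGG was in 19 windows (67.9% against 44.6%), CCAAT in 11 (39.3% against 35.7%), the E-box CACGTG in 3 (10.7% against 7.43%) and the YY1 motif AAGATGGC in 2 (7.1% against 3.03%). A GC box can lie within a G-quadruplex pattern, since both are rich in G. The G-quadruplex pattern was in 8 windows (28.6% against 24.1% of all), those of TOMM40, TIMM44, TIMM50, TIMM8A, TIMM9, PAM16, SAMM50 and MTX1. Of these 8, TOMM40, TIMM44 and TIMM50 were called lower with both drugs and the other 5 were not called with either; of the 20 members whose window lacks the pattern, 5 were called lower with both. A match describes letters and shows no binding.

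Other genes of the import route were read from lists that hold none of the 31 members. Their calls come from the main fit, and the other settings are given for members alone. Of 13 tested genes of the matrix motor and presequence processing, 1 fell with Pt-ttpy (7.69%, near the 6.45% of all genes) and 2 with cisplatin (15.4%, near the 14.4% of genes at 10 CPM or more; 9.78% of all genes). PMPCA, a subunit of the protease that removes presequences, had 141, 138 and 146 CPM with Pt-ttpy, 158, 131 and 152 CPM with cisplatin, and 183, 259 and 192 CPM with DMSO (log2 −0.58 and −0.53, adjusted p = 0.0204 and 0.0186). PITRM1, which degrades the cut presequences, fell with cisplatin (−0.33, adjusted p = 0.0468), and had −0.33 with Pt-ttpy (adjusted p = 0.0637). HSPA9, the mitochondrial HSP70 that TIMM44 anchors, had log2 changes of −0.17 and −0.24 that were not called (adjusted p = 0.216 and 0.0688). Median log2 changes of this list were −0.16 with Pt-ttpy and −0.13 with cisplatin.

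Of 10 tested genes for other membrane insertion and sorting steps, BCS1L and DNAJC11 fell with both drugs (20%, against 6.45% of all genes with Pt-ttpy and 9.78% with cisplatin, and 9.59% and 14.4% at 10 CPM or more). BCS1L, which moves a folded subunit of complex III across the inner membrane, averaged 16.8 ± 2.23 CPM with Pt-ttpy, 14.8 ± 3.18 with cisplatin and 28.9 ± 5.61 with DMSO (log2 −0.78 and −0.97, adjusted p = 0.0243 and 0.00663). DNAJC11, which associates with SAM and the MICOS complex, had changes of −0.54 and −0.49 (adjusted p = 0.0203 and 0.0182). For both genes DMSO 2 was the highest and cisplatin 2 the lowest library (35.2 and 11.2 CPM for BCS1L, 223 and 117 CPM for DNAJC11). Of 14 cytosolic targeting factors, 4 fell with each drug (28.6%, against the same shares), and none rose. HSPA8, the constitutive HSP70 that hands precursors to TOMM70, averaged 2010 ± 101 CPM with Pt-ttpy, 1950 ± 396 with cisplatin (cisplatin 2 lowest, at 1500) and 3290 ± 211 with DMSO (DMSO 2 highest, at 3490), with log2 changes of −0.71 and −0.76 (adjusted p = 0.012 and 0.00434). Its co-chaperones DNAJB1 (−0.48 and −0.53, adjusted p = 0.0155 and 0.00586) and STIP1 (−0.50 and −0.61, adjusted p = 0.0217 and 0.00639) and the chaperone HSP90AB1 (−0.39 and −0.33, adjusted p = 0.0208 and 0.0257) fell as well.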

How the data were processed

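RNA of 9 A2780 libraries (3 each of Pt-ttpy, cisplatin and DMSO) was column-purified and made into mRNA libraries, per the labels' protocols. "Cispt" was taken to mean cisplatin. The values deposited by the authors are counts, whole numbers without normalization in 1 table; the build was GRCh38, per the submitters' processing notes. For aligner, counting program and strandedness: not given in the sources used here. The table held 19974 Ensembl genes and 4568 loci named newGene, which were kept. Gene positions, exon overlaps and lengths come from GENCODE 29.

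Counts were fitted with edgeR 4.0.16 in R 4.3.3: filterByExpr (minimum count 10), TMM factors, robust quasi-likelihood F tests (two-sided) on the means of 3 groups over 9 libraries, and Benjamini-Hochberg adjustment over 15558 genes. Every adjusted p is from this test unless another is named. Fitted changes used a prior count of 0.125. TPM used exon lengths of basic transcripts and compares levels between genes. Values in every library are given for members called in any contrast and for the member of smallest adjusted p in a role group with none. The text names up to 4 genes of each further list by adjusted p, called ones first. The members, roles and lists were chosen with earlier results of these data known. The fit was tested on simulated data.

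Alternatives were DESeq2 1.42.0 (Wald test, and size factors within edgeR), limma-voom (limma 3.58.1), upper-quartile factors, library totals, no filter, a minimum count of 50, no robust estimation, the 6 libraries of a contrast, a replicate block, each library left out, and the 7 libraries without DMSO 2 and cisplatin 2. Added after seeing the data were a GC correction (lowess span 0.3) without and with the block, the 6-library fit with the block, and joining TOMM6 and PAM16 with overlapping genes. Libraries of cisplatin and DMSO with the same replicate number deviated together (correlations 0.196, 0.351 and 0.18), and each matched its own number best. The labels do not say what a number marks. DMSO 2 and cisplatin 2 also share a GC trend, for which these correlations were not corrected. Whether the numbers pair these samples is therefore not settled here. No libraries were duplicates of each other.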

Additional observations from a re-analysis of the deposited data

How the results depend on the processing

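All 31 members passed the filter on low counts. With 1 library left out at a time, called members ranged from 1 to 11 for Pt-ttpy, from 7 to 12 for cisplatin and from 0 to 1 for Pt-ttpy against cisplatin, against 10, 12 and 0 with all libraries. Over all genes, Pt-ttpy gave 143 higher and 42 lower without Pt-ttpy 2 (1 member), and 1411 and 1593 without cisplatin 2 (11 members). With all libraries it gave 870 and 1004. Cisplatin gave 1338 and 1040 without Pt-ttpy 3 (7 members) and 1701 and 1399 without DMSO 2 (12), against 1669 and 1521. Between the drugs, 1 higher and 20 lower genes were called without Pt-ttpy 2 (1 member). For Pt-ttpy, 16 members were called without DMSO 2 and cisplatin 2, where 2469 genes were called higher and 2720 lower of 15646. GC correction and replicate block together gave 16 members, among 1897 higher and 1788 lower of 13383 genes. With GC correction alone 15 were called, among 1813 and 1754. For cisplatin, 6 were called in the 6 libraries of its contrast (918 higher and 395 lower genes), and 10 with the replicate block (1760 and 1335). With GC correction 17 were called (2534 and 2369), and 16 with the block added (2539 and 2422). Calls over all genes thus rose and fell along with those of the members. The cause was not tested. With the replicate block alone, Pt-ttpy gave 1 higher and 10 lower members (TIMM8B added, log2 −0.45, adjusted p = 0.0418), among 1285 higher and 1254 lower genes. Cisplatin gave 1 and 13 members, among 1915 and 1797 genes. Pt-ttpy libraries correlated little with those of DMSO of the same number (0.0201, 0.0205 and −0.0415) or of cisplatin (0.0851, 0.0273 and 0.0109). These correlations were not corrected for the GC trend of DMSO 2 and cisplatin 2. Whether the numbers pair Pt-ttpy samples with the others is not settled here. Beyond TIMM8B and TIMM17A with cisplatin, the block alone changed no other call. The median of the members stayed below 0 against DMSO in every setting.

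The sign turned against DMSO for 5 members near 0, none of them called in any setting. With Pt-ttpy against DMSO, TIMM8A was −0.02 with GC correction, with or without the block, and −0.06 to 0.10 without 1 library. TIMM10B was 0.05 with upper-quartile factors or library totals, 0 at a minimum count of 50, 0.04 without DMSO 2 and cisplatin 2, 0.08 with GC correction, with or without the block, and −0.06 to 0.04 without 1 library. GRPEL2 was 0.05 with upper-quartile factors, 0.04 with library totals, 0 at a minimum count of 50, and −0.14 to 0.08 without 1 library. With cisplatin against DMSO, TIMM10B was 0.07 without DMSO 2 and cisplatin 2 and −0.26 to 0.01 without 1 library. TIMM29 was 0.05 with upper-quartile factors, 0.06 with library totals, 0 at a minimum count of 50, 0.07 with GC correction, with or without the block, and −0.11 to 0.07 without 1 library. SAMM50 was 0.01, 0.02, 0.01 and 0.01 with upper-quartile factors, library totals, and GC correction without and with the block, and −0.15 to 0.04 without 1 library. TOMM6 between the drugs, 2.47 on its own, was −0.07 when joined with the gene that contains it. Of all values of single members under other settings, 1363 kept direction and side of the threshold, 39 passed it newly, 100 lost it and 34 changed sign.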

Other observations

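Genes downstream of import were read from lists of MIA substrates, MICOS subunits and surveillance factors. As for the lists above, their calls come from the main fit alone. Of 24 substrates of the MIA pathway, 1 fell with Pt-ttpy, and 4 fell and 1 rose with cisplatin. The shares called lower, 4.17% and 16.7%, lay below the 6.45% of all genes with Pt-ttpy and near the 14.4% of genes at 10 CPM or more with cisplatin (9.78% of all). Their median log2 change was −0.23 with each drug, with 20 and 18 of 24 values below 0. All Pt-ttpy libraries lay below all DMSO libraries for 13 substrates (background 20.6%, or 28.5% at 10 CPM or more) and above for 1 (20.3%). With cisplatin this held for 12 (19.4%, or 27%) and for 3 (18.6%). COX6B1, a subunit of cytochrome c oxidase, had 61.9, 56.8 and 58.9 CPM with Pt-ttpy, 56.5, 57.1 and 57.4 CPM with cisplatin, and 77.1, 76.8 and 77 CPM with DMSO, with no overlap (log2 −0.38 and −0.43, edgeR adjusted p = 0.0235 and 0.00892). CMC2 fell with cisplatin (−0.40, adjusted p = 0.0309) and had −0.35 with Pt-ttpy (adjusted p = 0.0719). TRIAP1, a lipid transfer partner that is also a p53 target, rose with cisplatin, to 51.3, 41.7 and 49.5 CPM, against 37.7, 31.9 and 32 CPM with DMSO (log2 0.49, adjusted p = 0.0273). With Pt-ttpy it had 33.9, 31.7 and 26.2 CPM (−0.15 against DMSO, adjusted p = 0.514), and its difference between the drugs was not called (adjusted p = 0.0805).

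Of 7 MICOS genes, which shape the cristae, CHCHD3 fell with cisplatin (log2 −0.41, adjusted p = 0.01) and had −0.23 with Pt-ttpy (adjusted p = 0.115); that is 14.3% of the list with cisplatin, near that same 14.4%. Of 14 genes that watch over import stress, ATF5, a transcription factor of the mitochondrial unfolded protein response, fell with both drugs, which is 7.14% of the list, near or below the background of 6.45% and 9.78%. It had 30.2, 32.4 and 27.1 CPM with Pt-ttpy, 30.8, 34.8 and 28.8 CPM with cisplatin, and 50.1, 61.7 and 49 CPM with DMSO, again with no overlap (log2 −0.84 and −0.77, adjusted p = 0.00589 and 0.00367). The other 13 were not called with either drug. Summed over the 31 members, the levels were 2520, 2490 and 2500 CPM with Pt-ttpy, 2560, 2270 and 2490 CPM with cisplatin, and 2850, 2880 and 2760 CPM with DMSO.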
